A study of Mus musculus with 6 samples.

Results

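Signals of the transforming growth factor beta (TGF-β), activin and bone morphogenetic protein (BMP) families were followed in mouse brown adipocytes through 10 of the 24537 genes in the deposited table. They are the TGF-β ligands Tgfb1, Tgfb2 and Tgfb3, the activin subunits Inhba and Inhbb, the ligand Bmp4, the protease Bmp1, the latency protein Ltbp1 and the follistatins Fst and Fstl3. They were found in the table by symbol alone. RNA sequencing compared 3 libraries of cells treated with 4-chlorobenzoic acid (4CBA), an inhibitor of COQ2 and so of coenzyme Q (CoQ) synthesis, with 3 libraries of vehicle-treated cells (CTL), to see how transcripts change when CoQ is short. The 4CBA cells received 4 mM 4CBA from day 4 of a 6-day differentiation, for 48 h by the sample labels, whereas the methods of the paper give a shorter treatment, and which time these libraries hold was not settled here. The CTL cells received DMSO and ethanol over the same days, by the methods. Both groups are the same single immortalized line of murine brown preadipocytes, so neither group holds the other cells of brown fat. By the methods, differentiation was induced with insulin, T3, indomethacin, 3-isobutyl-1-methylxanthine, dexamethasone and rosiglitazone. The cells were then kept in a maintenance medium with insulin, T3 and rosiglitazone. The methods state that biological replicates were pooled to make RNA, so the p-values cover only how far these libraries differ, a spread that may be technical.

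TGF-β, activins and BMPs are secreted dimers that bring together type I and type II receptor kinases on the cell surface. TGF-β and activin receptors phosphorylate SMAD2 and SMAD3, BMP receptors phosphorylate SMAD1, SMAD5 and SMAD9, and both groups of SMADs enter the nucleus with SMAD4. TGF-β is secreted in a latent form held in the matrix by latent TGF-β binding proteins, and follistatins trap activins outside the cell. In mouse fat, TGF-β signalling through SMAD3 is known to restrain thermogenic genes, and several BMPs are known to favour brown adipocyte formation.

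TGF-β ligand genes moved in opposite directions, so the stretch of genome before the start of Tgfb1, which was higher in 4CBA, and that of Tgfb2, which was lower, are shown. Each is the 250 bases upstream of the annotated start on the gene's own strand, 5′ to 3′, from RefSeq (GRCm38.p6), at chr7:25686752-25687001 on the + strand for Tgfb1 and at chr1:186705990-186706239 on the - strand for Tgfb2, with GTCT and its reverse complement AGAC, the letters that SMADs are known to bind, in capitals.
Tgfb1: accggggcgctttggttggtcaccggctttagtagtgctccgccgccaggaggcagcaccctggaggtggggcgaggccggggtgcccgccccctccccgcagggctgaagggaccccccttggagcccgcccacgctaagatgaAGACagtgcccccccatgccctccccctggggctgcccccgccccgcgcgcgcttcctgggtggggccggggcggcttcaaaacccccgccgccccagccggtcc
Tgfb2: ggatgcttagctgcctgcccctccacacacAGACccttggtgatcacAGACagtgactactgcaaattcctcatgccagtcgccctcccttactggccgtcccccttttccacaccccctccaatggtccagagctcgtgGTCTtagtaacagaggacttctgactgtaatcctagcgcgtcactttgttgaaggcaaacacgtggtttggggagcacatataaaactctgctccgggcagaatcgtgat
The Tgfb1 window held 1 match, 105 bases before the start, and the Tgfb2 window held 3, at 220, 203 and 110 bases before it. Such short letters are common, and 82.9% of all 32851 windows of this length held at least 1 match, with 1.87 matches per window on average. G and C made up 75.2% of the Tgfb1 window and 53.6% of the Tgfb2 window, against a median of 52.4% over all windows. Windows were found for 7 of the 10 genes, all but Tgfb3, Fst and Bmp1. None of the 7 held TGATGNAA or TTNCATCA, the letters of the stress factor ATF4 bound with a C/EBP protein, which 3.5% of all windows held on either strand, and none held TGANTCA, the AP-1 letters, which 6.7% held. A match here is a description of letters and does not show binding.

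Values are RPKM, reads scaled for exon length and library size, which allow levels of different genes to be set side by side. The test was limma on log2(RPKM + 1) for the 12659 genes that reached an RPKM of 0.5 in 3 or more libraries, with Benjamini-Hochberg adjustment over all of them, and a gene was called at an adjusted p under 0.05. The scale understates changes of genes with low RPKM, and each fold given below is the ratio of group means of RPKM. Of the 12659 genes, 68.4% were called, 38.4% as higher in 4CBA and 30.0% as lower. With all libraries brought to 1 common median, the higher calls made up 45.7% of all calls, against 56.1% without that scaling. Estimated depth was 10800000 to 11500000 reads in the 4CBA libraries and 9420000 to 12200000 in the CTL libraries, and 1 read in a transcript of 2000 bases was worth an RPKM of 0.0449 at the median depth. Across genes, which are not independent of each other, log2 values of 2 libraries correlated with r of 0.996 to 0.9967 inside a group and 0.9673 to 0.9693 across groups.

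The filter on low values left 7 of the 10 genes to test, without Inhba, Inhbb and Bmp4. Of these 7, Tgfb1 and Fstl3 were called higher in 4CBA, and Tgfb2, Tgfb3, Bmp1, Fst and Ltbp1 were called lower. That is 2 higher and 5 lower of 7 tested, where the share called in either direction over all genes was 68.4%. Median log2 fold change was -0.83 over the 7 genes and 0.06 over all genes tested. Tgfb2 and Fst passed the filter only through the CTL libraries and so had to differ, and the counts and the median are a description for that reason. In a bulk sample, fewer cells of a type and less RNA per cell cannot be told apart.

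**Figure D1:**
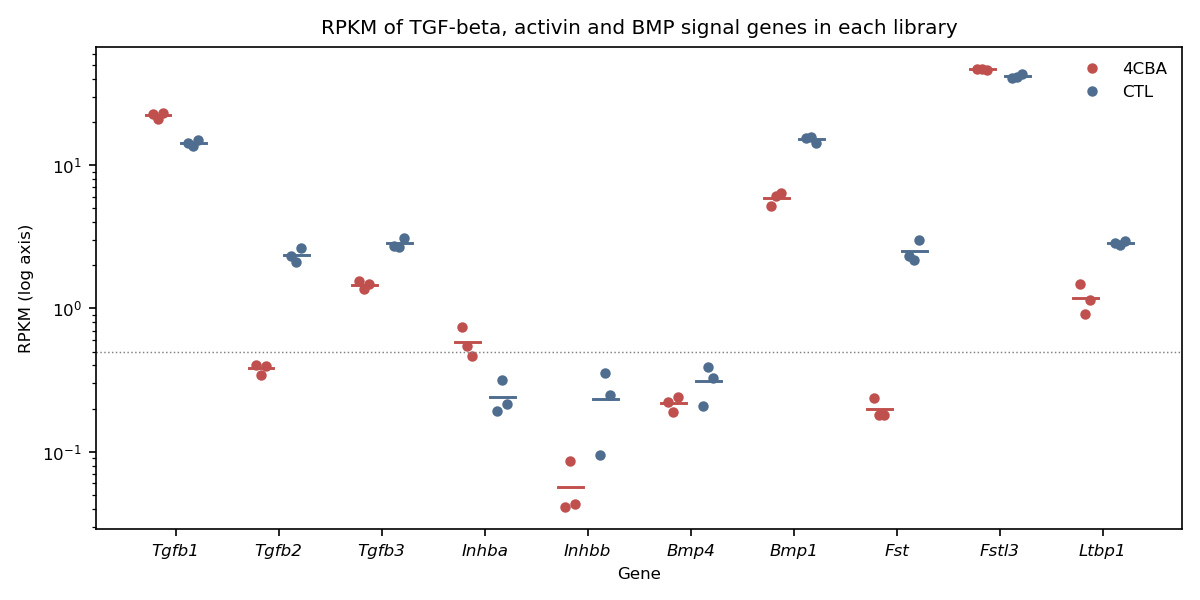
RPKM on a log axis of the 10 genes in each library, 4CBA left of CTL, where points are libraries, bars are group means of 3 libraries and the dotted line is the filter at an RPKM of 0.5. Fstl3 lies near 40 to 47 in all libraries, Fst and Tgfb2 fall under the dotted line in 4CBA only, and Inhbb and Bmp4 lie under it in every library.

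Tgfb1, the most widely expressed TGF-β ligand, was 1.56-fold higher in 4CBA than in CTL. Its RPKM was 22.9, 20.9 and 23.2 in 4CBA replicates 1, 2 and 3, against 14.4, 13.7 and 14.9 in CTL replicates 1, 2 and 3. Every 4CBA library lay above every CTL library, with means of 22.3 ± 1.23 in 4CBA and 14.3 ± 0.629 in CTL (SD, n = 3 each). The log2 fold change was 0.61 with a standard error of 0.06 (limma adjusted p = 4.24e-06), and it lay between 0.49 and 0.65 under all 13 alternative settings, each with the call kept. Tgfb1 spans 25687002 to 25705077 on the + strand of chromosome 7 (GRCm38, GENCODE vM21), where no other gene overlaps it.

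Tgfb2, a ligand known for its part in heart and palate development, was 6.19-fold lower in 4CBA. Its RPKM was 0.406, 0.342 and 0.397 in the 4CBA libraries, against 2.34, 2.10 and 2.65 in the CTL libraries. These stand for an estimated 24, 19 and 22 reads in 4CBA, against 147, 129 and 128 reads in CTL, so the difference did not rest on a handful of reads. Means were 0.382 ± 0.0347 in 4CBA and 2.36 ± 0.271 in CTL (SD, n = 3 each). On log2(RPKM + 1) the fold change was -1.28, and it was -2.35 with a pseudocount of 0.1. That step bears on all genes of low RPKM. Tgfb2 passed the filter only through CTL, so its p-value in the main test is no support for a difference. Without the filter, where 30.4% of all 24537 genes were called, the log2 fold change was -1.28 ± 0.08 (standard error, limma adjusted p = 0.000647). Tgfb2 lies on the - strand of chromosome 1 from 186622792 to 186705989, and the antisense gene Gm29491 and a small RNA gene overlap it on the other strand.

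Tgfb3, a ligand that the matrix also holds in latent form, was 1.94-fold lower in 4CBA. RPKM values were 1.56, 1.36 and 1.47 in the 4CBA libraries, against 2.74, 2.67 and 3.13 in the CTL libraries. No 4CBA library reached the lowest CTL library. Means were 1.47 ± 0.101 in 4CBA and 2.84 ± 0.247 in CTL (SD, n = 3 each), with a log2 fold change of -0.64 ± 0.10 (standard error, limma adjusted p = 8.51e-05). Tgfb3 lies on the - strand of chromosome 12 from 86056745 to 86079041, inside a region where the protein-coding gene Ttll5 is annotated on the + strand. The sources used here do not say whether reads were counted by strand, so for genes with an overlapping partner the reads of the 2 strands could not be separated here.

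Makeup of the ligand transcripts differed between groups, with nearly all TGF-β ligand RPKM in 4CBA coming from Tgfb1. Tgfb1 made up 92.1%, 92.5% and 92.5% of the summed RPKM of the 3 ligands in the 4CBA libraries, against 73.9%, 74.1% and 72.1% in the CTL libraries. Tgfb2 made up 1.58% ± 0.061 in 4CBA and 12.1% ± 0.689 in CTL, and Tgfb3 made up 6.06% ± 0.208 in 4CBA and 14.6% ± 0.523 in CTL (SD, n = 3 each). All 3 shares separated the groups without overlap. An exact two-sided permutation test gave p = 0.1 for each, the smallest p that 3 against 3 libraries allow, and 0.125 after adjustment over the 5 values of this kind. The summed RPKM of the 3 ligands was 24.8, 22.6 and 25.0 in the 4CBA libraries, against 19.5, 18.4 and 20.7 in the CTL libraries. The sum was thus higher in every 4CBA library, although 2 of its 3 genes were lower there.

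**Figure D2:**
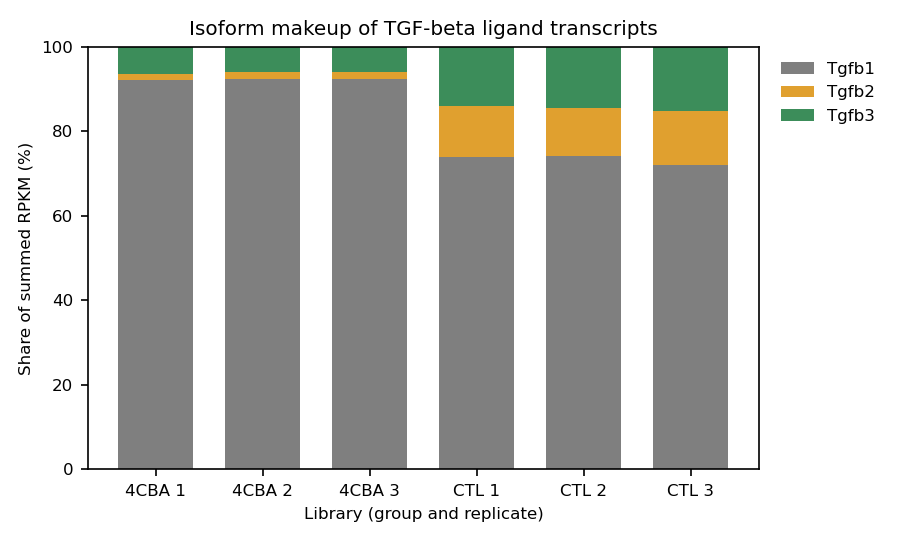
Share of each ligand gene in the summed RPKM of Tgfb1, Tgfb2 and Tgfb3 (%) in each library, 4CBA left of CTL, as stacked bars from 0 to 100. Tgfb1 takes 92.1% to 92.5% in the 4CBA libraries and 72.1% to 74.1% in the CTL libraries, and the bands of Tgfb2 and Tgfb3 are both narrower in 4CBA.

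Activin subunit transcripts were scarce in both groups and stayed under the filter, so neither entered the main test. Inhba encodes the βA subunit, whose homodimer is activin A. The Inhba RPKM was 0.746, 0.548 and 0.462 in the 4CBA libraries, against 0.191, 0.314 and 0.215 in the CTL libraries, or an estimated 55, 38 and 32 reads against 15, 24 and 13. The lowest 4CBA library lay above the highest CTL library, and the means were 0.585 ± 0.146 in 4CBA and 0.240 ± 0.0652 in CTL (SD, n = 3 each), a 2.44-fold difference. Without the filter, where 30.4% of all 24537 genes were called, Inhba had a log2 fold change of 0.35 ± 0.09 (standard error, limma adjusted p = 0.0463).

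Inhbb, which encodes the βB subunit of activin B, had values of 0.041, 0.086 and 0.043 RPKM in the 4CBA libraries, against 0.095, 0.353 and 0.248 RPKM in the CTL libraries. These are an estimated 2, 4 and 2 reads in 4CBA, against 5, 18 and 10 reads in CTL. All 4CBA values lay below all CTL values, but CTL replicate 1 was close to the highest 4CBA library. Without the filter, the log2 fold change was -0.22 ± 0.09 and not past the threshold (standard error, limma adjusted p = 0.166). Among all 5228 genes under the filter with any reads, 18.5% had groups that did not overlap, in either direction, and Inhba and Inhbb are 2 of the 3 described here. Of the summed RPKM of both subunits, Inhba made up 94.8%, 86.4% and 91.5% in the 4CBA libraries, against 66.8%, 47.1% and 46.4% in the CTL libraries. These shares did not overlap (exact two-sided permutation p = 0.1, the smallest possible, adjusted p = 0.125), and they varied more in CTL. Inhba spans 16011851 to 16031621 on the + strand of chromosome 13, overlapped by the antisense gene Gm48444, and Inhbb spans 119415465 to 119422248 on the - strand of chromosome 1.

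Bmp4, a ligand known to commit mesenchymal precursors to the adipocyte lineage, was near the detection limit in both groups. Its RPKM was 0.224, 0.190 and 0.239 in the 4CBA libraries, against 0.210, 0.389 and 0.328 in the CTL libraries. The groups overlapped, and the estimated reads were 5, 4 and 5 in 4CBA, against 5, 9 and 6 in CTL. Without the filter, the log2 fold change was -0.10 ± 0.07 (standard error, limma adjusted p = 0.41), so a difference was not detectable at this depth. Bmp4 lies on the - strand of chromosome 14 from 46383520 to 46390669, where Gm15217 and Gm15222 are annotated on the + strand.

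Both genes that act on matrix and latency were lower in 4CBA. Bmp1, despite its name, encodes not a ligand but a metalloprotease that removes the C-terminal propeptides of collagens and cleaves the BMP antagonist chordin. The Bmp1 RPKM was 5.21, 6.04 and 6.38 in the 4CBA libraries, against 15.5, 15.7 and 14.3 in the CTL libraries. Groups lay far apart, at 5.88 ± 0.605 in 4CBA and 15.2 ± 0.790 in CTL (SD, n = 3 each), a 2.58-fold lower level in 4CBA with a log2 fold change of -1.24 ± 0.08 (standard error, limma adjusted p = 6.25e-08). Bmp1 is thus the 1 gene of the 5 lower ones that also passed a stricter filter at an RPKM of 5. It spans 70474558 to 70520234 on the - strand of chromosome 14.

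Ltbp1 encodes the latent TGF-β binding protein that ties the latent complex to fibrillin and fibronectin in the matrix. Its RPKM was 1.48, 0.91 and 1.15 in the 4CBA libraries, against 2.88, 2.78 and 2.93 in the CTL libraries. The 4CBA libraries were more spread, at 1.18 ± 0.284 against 2.86 ± 0.0789 in CTL (SD, n = 3 each), yet their highest value was well under the lowest CTL value. The level was 2.43-fold lower in 4CBA, with a log2 fold change of -0.83 ± 0.11 (standard error, limma adjusted p = 3.18e-05). Ltbp1 spans 75005568 to 75392512 on the + strand of chromosome 17, a span that also holds the processed pseudogene Gm6276.

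Follistatins are secreted glycoproteins that bind activins, and the pair measured here went separate ways. Fst was lower in 4CBA by the widest ratio of mean RPKM among the 7 tested genes. The Fst RPKM was 0.237, 0.18 and 0.18 in the 4CBA libraries, against 2.32, 2.19 and 2.98 in the CTL libraries, or an estimated 7, 5 and 5 reads in 4CBA, against 73, 67 and 72 reads in CTL. Fst transcripts were thus plain in CTL and close to the detection limit in 4CBA. Means were 0.199 ± 0.0329 in 4CBA and 2.50 ± 0.423 in CTL (SD, n = 3 each), a 12.6-fold lower level in 4CBA. The log2 fold change was -1.54, and -3.11 with a pseudocount of 0.1. As with Tgfb2, only CTL brought Fst past the filter, so its p-value in the main test is no support for a difference. Without the filter, the log2 fold change was -1.54 ± 0.10 (standard error, limma adjusted p = 0.000825). Fst lies on the - strand of chromosome 13 from 114452290 to 114458951, with the antisense gene Gm47040 across it.

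Fstl3, a follistatin-like protein known to bind activins and myostatin, was the highest of the 10 genes in both groups. Its RPKM was 47.0, 46.8 and 46.2 in the 4CBA libraries, against 40.4, 41.5 and 43.3 in the CTL libraries. The groups did not overlap, but the difference was small, at 46.7 ± 0.427 in 4CBA and 41.8 ± 1.47 in CTL (SD, n = 3 each), or 1.12-fold. The log2 fold change was 0.16 ± 0.05 (standard error, limma adjusted p = 0.0165). The call was lost with libraries scaled to the same median (log2 fold change 0.04, limma adjusted p = 0.485), with the authors' log2 values (0.09, p = 0.154 after adjustment), without 4CBA replicate 2 (adjusted p = 0.0525) and without CTL replicate 1 (adjusted p = 0.0663). Fstl3 spans 79777272 to 79782630 on the + strand of chromosome 10, and the protein-coding gene Prss57 overlaps it on the - strand.

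Set against the activin subunits, follistatin transcripts were in large excess in every library. The summed RPKM of Fst and Fstl3 was 60.0, 74.2 and 91.8 times that of Inhba and Inhbb in the 4CBA libraries, against 149, 65.5 and 100 times in the CTL libraries. The groups overlapped (means 75.3 ± 15.9 in 4CBA and 105 ± 42.2 in CTL, SD, n = 3 each, exact two-sided permutation p = 0.4, adjusted p = 0.4). Almost all of the follistatin sum was Fstl3.

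**Figure D3:**
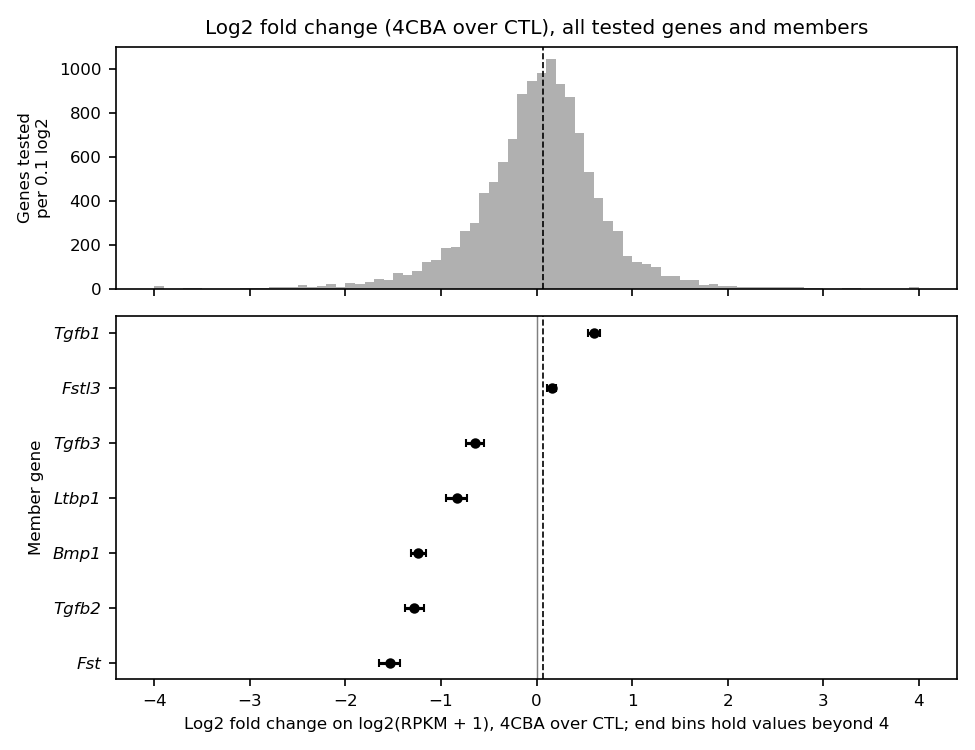
Log2 fold change on log2(RPKM + 1), 4CBA over CTL, of the 7 genes tested (points, with bars of 1 standard error) under a histogram of all 12659 genes tested, whose median of 0.06 is the dashed line. Tgfb1 at 0.61 and Fstl3 at 0.16 lie above 0, and Tgfb3 at -0.64, Ltbp1 at -0.83, Bmp1 at -1.24, Tgfb2 at -1.28 and Fst at -1.54 lie below it.

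Order of the levels differed between the groups. In 4CBA, mean RPKM ran from Fstl3 (46.7) through Tgfb1 (22.3), Bmp1 (5.88), Tgfb3 (1.47), Ltbp1 (1.18), Inhba (0.585), Tgfb2 (0.382), Bmp4 (0.218) and Fst (0.199) to Inhbb (0.0567). The libraries of Tgfb3 and Ltbp1 overlapped, as did those of Bmp4 and Fst. In CTL it ran from Fstl3 (41.8) through Bmp1 (15.2), Tgfb1 (14.3), Ltbp1 (2.86), Tgfb3 (2.84), Fst (2.50), Tgfb2 (2.36), Bmp4 (0.309) and Inhba (0.240) to Inhbb (0.232). There Bmp1 overlapped with Tgfb1, each of Ltbp1, Tgfb3, Fst and Tgfb2 overlapped with its neighbour in this order, and Bmp4, Inhba and Inhbb overlapped with each other. Tgfb1 thus stood above Bmp1 without overlap in 4CBA, while the libraries of both genes overlapped in CTL.

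Some markers of the cells also differed between the groups. The brown adipocyte list summed to an RPKM of 5224 to 6528 in the 4CBA libraries and 10600 to 11140 in the CTL libraries. Most of that sum was Fabp4, with means of 4846 in 4CBA and 8620 in CTL. Of its 10 genes, 9 were tested and 8 were lower in 4CBA, where 30.0% of all genes tested were lower. Among the 8 was Ucp1, at 1.90, 2.13 and 2.36 RPKM in 4CBA, against 38.8, 33.7 and 31.5 in CTL. The preadipocyte and fibroblast list summed to 38.6 to 41.9 in 4CBA and 88.0 to 98.9 in CTL. Of its 9 genes, 6 were tested and 5 were lower in 4CBA, among them Thy1, which passed the filter only through CTL. Dpp4 was at 0 in every library. The part of either list in the falls of Tgfb2, Tgfb3, Bmp1, Fst and Ltbp1 was not tested. The macrophage list summed to at most 0.896 in 4CBA and 0.812 in CTL, and Adgre1, Ptprc and Itgam were at 0 in every library. The endothelial list summed to at most 0.479 in 4CBA and 0.128 in CTL, with Cdh5 at 0 throughout. Muscle markers summed to 10.2 to 11.5 in 4CBA and 5.88 to 6.26 in CTL. Acta1 was the gene that rose, with means of 4.43 in 4CBA and 0.276 in CTL (log2 fold change 2.08). It passed the filter only through the 4CBA libraries and so had to differ. The muscle factors Myod1, Myog and Myf5 were at 0 in all libraries.

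Other genes of the pathway were counted by role. Over all genes tested, 38.4% were called higher and 30.0% lower, with a median log2 fold change of 0.06. No test was made over a list. Of 26 further ligands and subunits, 7 were tested, 2 were higher, 3 were lower, and 8 were at 0 in every library. Among the lower ones, Gdf5 and Gdf10 passed the filter only through CTL and so had to differ. Gdf15, a stress hormone of this family that acts through GFRAL, stood at 139, 147 and 150 RPKM in the 4CBA libraries, against 8.43, 10.5 and 8.74 in the CTL libraries, a 15.8-fold higher level (log2 fold change 3.85, limma adjusted p = 5.44e-12) and above every one of the 10 genes in 4CBA. Gdf10 was 19.1-fold lower in 4CBA (0.146 ± 0.173 RPKM in 4CBA and 2.80 ± 0.706 RPKM in CTL, SD, n = 3 each), with only CTL above the filter. Gdf11 was called lower (log2 fold change -0.28) and Inha, the α subunit that turns activin subunits into inhibins, was called higher (log2 fold change 0.26). The call of Gdf11 was lost in 5 and that of Inha in 8 of the alternative settings.

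Receptors were called in both directions. Of 12 type I and type II receptors, 10 were tested, 3 were higher and 2 lower, with a median log2 fold change of 0.05. With libraries scaled to the same median, 2 were higher and 3 lower. The shares over all genes tested were 38.4% higher and 30.0% lower, with a median log2 fold change of 0.06. These counts alone do not set type I and type II receptors apart from other genes. Of the pair that receives TGF-β, the type I receptor Tgfbr1 was 1.41-fold higher in 4CBA (11.7 ± 0.433 RPKM in 4CBA and 8.30 ± 0.363 in CTL) and the type II receptor Tgfbr2 was 1.97-fold lower (14.5 ± 0.864 in 4CBA and 28.6 ± 0.372 in CTL, SD, n = 3 each). Acvr1c, the adipocyte-enriched receptor ALK7, was 6.04-fold lower, at 1.37 ± 0.122 RPKM in 4CBA and 8.30 ± 0.712 in CTL. Acvr1b, the activin type I receptor, was called higher (log2 fold change 0.30, limma adjusted p = 0.0111), a call that was lost without the filter and with libraries scaled to the same median. Of 9 genes for co-receptors and a decoy receptor, Bambi, 6 were tested, 3 were higher and 1 lower. Neo1 was 2.0-fold higher and Eng was 1.57-fold higher, while Tgfbr3, the betaglycan that presents Tgfb2 to its receptors, was 2.12-fold lower, with 17.0 ± 1.27 RPKM in 4CBA and 36.0 ± 1.80 in CTL (SD, n = 3 each).

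SMAD transcripts were mostly higher in 4CBA, 7 of 8 with a median log2 fold change of 0.59, where 38.4% of all genes tested were higher. With libraries scaled to the same median, 5 of 8 were higher. Smad9 was 3.79-fold higher (9.18 ± 0.459 RPKM in 4CBA and 2.43 ± 0.260 in CTL) and Smad1 was 1.89-fold higher (12.0 ± 0.563 in 4CBA and 6.37 ± 0.0903 in CTL, SD, n = 3 each). Of 11 intracellular modulators of SMADs, 8 were higher and 1 was lower (38.4% and 30.0% over all genes tested), with a median log2 fold change of 0.77. Tgif1, a corepressor of SMADs, was 5.90-fold higher, at 67.0, 66.8 and 69.6 RPKM in the 4CBA libraries, against 12.1, 11.1 and 11.3 in the CTL libraries. Pmepa1, which dampens TGF-β signals, was 2.79-fold higher, and Tgif2 was lower (log2 fold change -0.50), a call lost without the filter.

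Inhibitors of BMPs and activins and genes of latency, activation and processing were mostly lower where tested, against 30.0% of all genes tested. Of 18 further inhibitors of BMPs and activins, 9 were tested, 2 were higher and 5 lower, with a median log2 fold change of -0.34. Fstl1, a follistatin-like protein, was 3.90-fold lower, at 36.5, 35.5 and 34.2 RPKM in the 4CBA libraries, against 133, 136 and 145 in the CTL libraries. Grem1, a BMP antagonist, was 3.59-fold lower, at 1.11, 0.449 and 0.676 RPKM in the 4CBA libraries, against 2.63, 2.50 and 2.90 in the CTL libraries. It reached the filter in every CTL library, while 4CBA replicate 2 lay under it. Dand5 was 1.96-fold higher, and Crim1 was called higher with overlapping groups (log2 fold change 0.21, limma adjusted p = 0.0419), a call lost in 7 alternative settings. Of 19 further genes of latency, activation and processing, 12 were tested, 2 were higher and 8 lower, with a median log2 fold change of -0.76. Among the lower ones, Lrrc32 passed the filter only through CTL. Thbs1, thrombospondin 1, an activator of latent TGF-β, was 8.10-fold lower, and Pcolce, which enhances procollagen cleavage by the product of Bmp1, was 6.44-fold lower (43.8 ± 4.04 RPKM in 4CBA and 282 ± 1.56 in CTL, SD, n = 3 each). Ltbp3 ran against Ltbp1, 1.60-fold higher at 126 ± 5.35 RPKM in 4CBA and 79.2 ± 1.58 in CTL (SD, n = 3 each), and Pcsk6, a proprotein convertase, was 1.37-fold higher.

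Genes known as targets of these signals did not move one way. Over all genes tested, 38.4% were higher and 30.0% lower. Of 16 genes known as TGF-β targets, all tested, 8 were higher and 6 lower, with a median log2 fold change of 0.14, and 5 were higher and 6 lower with libraries scaled to the same median. Tgif1, given above, was among those higher in 4CBA. Postn, a matrix protein, was 17.5-fold lower and Acta2, smooth muscle actin, was 5.30-fold lower. Of 12 genes known as BMP targets, 11 were tested, 7 were higher and 3 lower, with a median log2 fold change of 0.53. Smad9 and Hey1 (2.67-fold) had the largest rises, while the inhibitors of differentiation Id4 and Id3 were lower (log2 fold changes -0.69 and -0.33, the call of Id3 lost without the filter). Of the same family, Id1 was called lower (log2 fold change -0.18) and Id2 higher with overlapping groups (0.34). Both of these calls were lost without the filter. Smad7 stands in 3 of the lists of the pathway, and Skil, Pmepa1, Tgif1, Smad6, Smad9 and Bambi stand in 2 each.

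**Figure D4:**
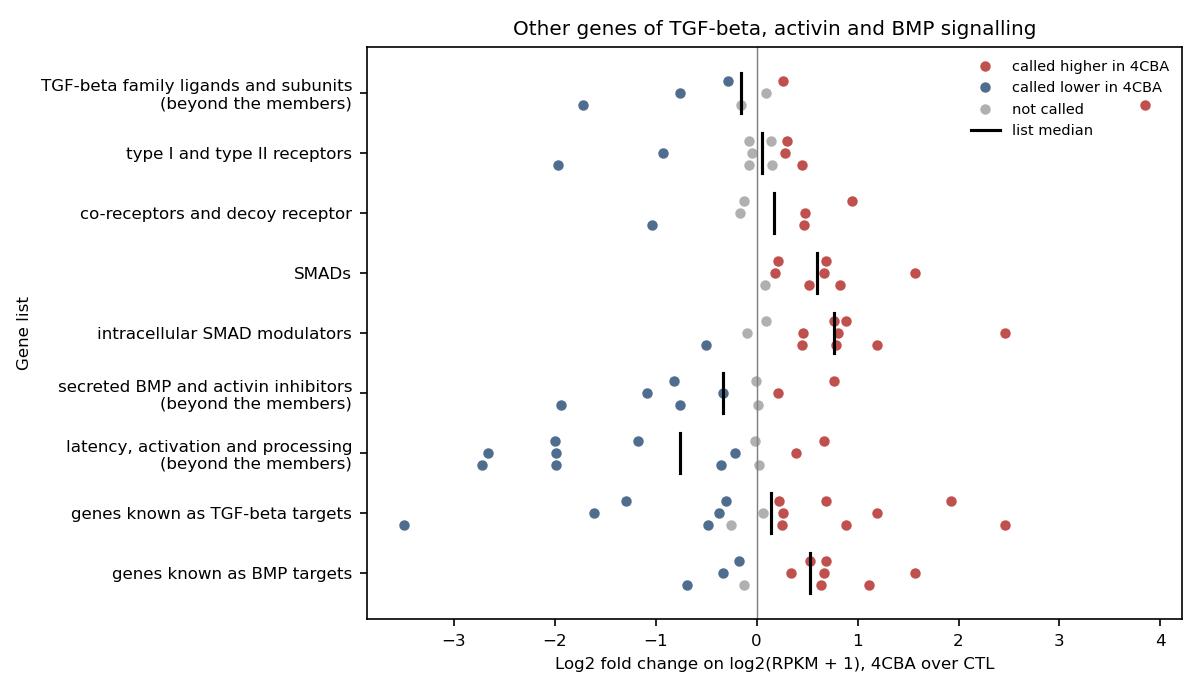
Log2 fold change on log2(RPKM + 1), 4CBA over CTL, of each tested gene in 9 lists of the pathway, one list per line, where red points are called higher in 4CBA, blue points are called lower, grey points are not called and black bars are list medians. The medians run from -0.76 for latency, activation and processing to 0.77 for intracellular SMAD modulators, and the far right point is Gdf15 at 3.85.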

How the data were processed

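Messenger RNA of 6 libraries, 3 4CBA and 3 CTL, was sequenced, and groups come from the sample titles. The authors mapped reads with STAR to mm10 and counted exon reads with HOMER for 1 RefSeq isoform of each gene. They deposited RPKM values, used here, and a table of log2 values whose transform is not stated, used as an alternative. The same table holds the fold changes and p-values of their DESeq2 comparison, which were not used. The sources used here give no tool versions, and the RPKM header names 24 libraries processed together.

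Log2(RPKM + 1) was fitted with limma 3.58.1 (R 4.3.3, trend and robust) over genes that reached an RPKM of 0.5 in 3 or more libraries, with Benjamini-Hochberg adjustment and no covariates, and the fit was tested on simulated data. The members and gene lists were chosen with earlier results of these data known. Besides the 10 genes, each list names the 2 genes with the largest log2 fold change in each direction among called genes whose higher group averaged an RPKM of 1 or more, and any other gene named was picked with its values in view. A gene that this rule names among the TGF-β targets is not reported here. Depth and reads per gene were worked out from the spacing of low RPKM values, of which 64.5% to 66.2% came out as whole reads within 0.04. These counts cover no error other than counting, and they depend on the exon length used. For Inhba, Bmp4 and Fst, the lengths that gave whole reads (6419, 1941 and 2572 bases) exceeded the annotated ones (1529, 1633 and 1113). At the annotated lengths, the reads given for these genes would be fewer. Promoter windows and motifs were read with Python 3.11.15. A planned comparison of protein sequences was not analysed here. Alternatives were a pseudocount of 0.1, a filter at an RPKM of 5 or none, no robust estimation, the same median in all libraries, the authors' log2 values, the replicate block and each library left out.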

Additional observations from a re-analysis of the deposited data

How the results depend on the processing

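The 13 alternatives kept the direction of each of the 7 genes wherever it was tested, which for Tgfb2, Tgfb3, Fst and Ltbp1 was in 12 of them, and every call except that of Fstl3 was kept there. For Tgfb2 and Fst, which passed the filter only through CTL, only the alternative without the filter bears on the call. The count called higher was 1 in place of 2 with the authors' log2 values and with libraries scaled to the same median, 3 without the filter, where Inhba was added, and 1 to 2 with each library left out in turn, the lower value coming without 4CBA replicate 2 and without CTL replicate 1. The count called lower was 1 in place of 5 with the filter at an RPKM of 5, under which only 3 of the 10 genes were tested, and the pathway lists then had 17 genes called lower in place of 29. The authors' log2 values rest on another RefSeq transcript for 5 of the 10 genes. Depth limits Inhbb and Bmp4 most, with at most 18 estimated reads in any library.

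The groups share replicate numbers, and deviations of libraries with the same number correlated with r of -0.067, -0.033 and -0.027, so the numbers were not taken to pair the libraries. With the replicate block, 4765 genes were called higher and 3734 lower in 4CBA, and the 10 genes kept 2 higher and 5 lower.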

Other observations

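Nog and Fbn2, which lay under the filter on low values, and Gdf5 were picked after their values were seen. Nog, which encodes the BMP antagonist noggin, had 0.450, 0.574 and 0.719 RPKM in the 4CBA libraries, against 0.042, 0.087 and 0 RPKM in the CTL libraries. Every 4CBA library was thus above every CTL library. Of all 5228 genes under the filter with any reads, 18.5% had groups that did not overlap, in either direction. Fbn2, a fibrillin of the matrix, had 0.025, 0.035 and 0.035 RPKM in 4CBA, against 0.483, 0.504 and 0.598 RPKM in CTL. Gdf5, a BMP-like ligand that passed the filter only through CTL, had 0.037, 0.079 and 0.080 RPKM in 4CBA, against 0.807, 0.864 and 0.730 RPKM in CTL. These values are descriptions of genes chosen for how they differed.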
